A study of Mus musculus with 10 samples.

Results

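The regions described here are 2 kb stretches of the mouse autosomes that carried little H3K4me3 in undifferentiated embryonic stem (ES) cells and a clear amount after differentiation. They were chosen on the H3K4me3 reads of the line XT67E1 alone. A bin of chromosomes 1 to 19 was taken when it held 6 or fewer reads in undifferentiated cells and 18 or more reads after treatment with all-trans retinoic acid (atRA, 4 days) or in embryoid bodies (EBs) of 10 days. Of 1236167 bins, 227 met this rule, which is 0.0184% of the bins and 2.08% of the 10912 bins with 18 or more reads after either treatment. The mirror rule, 18 or more reads undifferentiated and 6 or fewer after either treatment, was met by 793 bins. The H3K4me3 values below therefore describe how the bins were chosen and are not a test. The H3K27me3 libraries played no part in the choice.

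H3K4me3 is placed by the COMPASS family of methyltransferases at CpG-rich promoters, and its spread over a promoter accompanies gene activity. H3K27me3 is placed by Polycomb repressive complex 2 (PRC2) over silent genes, among them many developmental regulators of ES cells. Promoters that carry both marks in ES cells are known as bivalent, and during differentiation they can resolve towards either mark. Retinoic acid is a ligand of nuclear receptors that drives ES cells into differentiation, while EBs are aggregates in which derivatives of the germ layers arise side by side.

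In XT67E1 (strain C3H/Pgk*129) both marks were profiled in undifferentiated cells, after 4 days of atRA and in 10-day EBs. In LF2 and E14 (both 129/Ola) H3K27me3 alone was profiled, before differentiation and in 10-day EBs. All ES cells were grown on gelatin in serum with LIF, the cytokine that holds ES cells undifferentiated, and EBs were formed by taking LIF away. Each of the 10 groups was 1 library, so within a line a difference has no replicate check. The libraries held 2252395 reads each for H3K4me3, and for H3K27me3 8380007 each in XT67E1 and 4531733 each in LF2 and E14. Reads come from mixed cells, so that fewer cells with a mark and less mark per cell cannot be told apart. Positions are on mm9, with the first base as 1. An mm9 annotation was not used here, so no bin carries a gene name, no list of marker genes was placed, and no sequence is shown.

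More of these bins reached 18 reads with atRA (4 days) than in EBs (10 days), in 1 library each. With 18 or more reads as the limit, 106 bins were marked with atRA only, 72 in EBs only and 49 with both treatments. Over all autosomal bins, too, more reached 18 reads with atRA (9834) than in EBs (9356). Undifferentiated cells held a median of 5 reads per bin (lowest 0, highest 6), atRA-treated cells 19 reads (lowest 1, highest 70) and EBs 18 reads (lowest 1, highest 37). Over all autosomal bins the median was 1 read in each of these libraries. Summed over the 227 bins, H3K4me3 was 2.40 times the mean autosomal bin before differentiation (Poisson 95% interval 2.25 to 2.56, which covers counting error only, as do all intervals below), 11.01 times with atRA (10.7 to 11.3) and 9.35 times in EBs (9.05 to 9.66). The bins' level thus lay above the genome-wide one already in undifferentiated cells.

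Most bins marked by 1 treatment also lay above their starting level with the other. The rule held that starting level to 6 or fewer reads, which itself favours a higher count in the other library. No share over comparable bins is given here. Of the 106 bins marked with atRA only, 97 had more reads in EBs than undifferentiated and 74 had at least 2 times as many, with a median of 10.5 reads in EBs. Of the same 106, 24 held 6 or fewer reads in EBs. Of the 72 bins marked in EBs only, 62 had more reads with atRA than undifferentiated, 46 had at least 2 times as many, and the median was 10 reads with atRA. The classes are set by a limit within a continuous spread, and 47 of the atRA-only bins held 12 to 17 reads in EBs. The plot of reads with atRA against reads in EBs shows this spread.

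**Figure D1:**
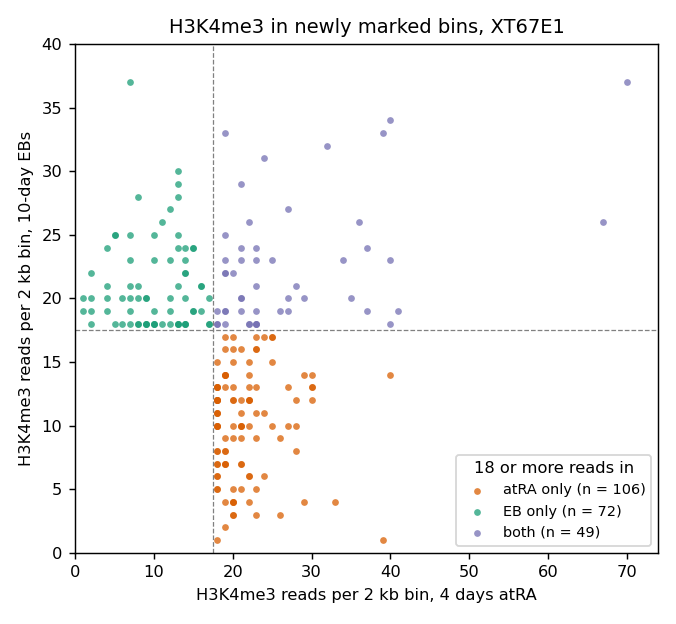
H3K4me3 reads per 2 kb bin in XT67E1 after 4 days of atRA (x axis) and in 10-day EBs (y axis) for the 227 newly marked bins, 1 point per bin, coloured by the treatment that reached 18 reads (dashed lines). Bins marked with both treatments (49) reach 70 reads with atRA and 37 in EBs, and most single-treatment bins keep some reads in the other library.

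The most H3K4me3 reads after treatment were at chr17:12934001-12936000, which held 6 reads undifferentiated, 70 with atRA and 37 in EBs. No bin held more reads with atRA, and in EBs only chr12:55302001-55304000 held as many. The bin chr8:28088001-28090000 held 3, 67 and 26 reads, and its neighbour chr8:28086001-28088000 held 6, 37 and 24. Further bins with a strong response to both treatments were chr13:29042001-29044000 (2, 40 and 34 reads) and chr1:170360001-170362000 (3, 39 and 33 reads).

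Some bins separated the treatments sharply. The bin chr17:68048001-68050000 held 5 reads undifferentiated, 39 with atRA and 1 in EBs, and chr8:11310001-11312000 held 3, 33 and 4. In the other direction, chr12:55302001-55304000 held 5 reads undifferentiated, 7 with atRA and 37 in EBs, and chr2:11424001-11426000 held 5, 1 and 19. These are single libraries, and the contrast is a description of the reads by which the bins were chosen.

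Many bins lay close to the limits of the rule. The higher of the 2 later counts was exactly 18 in 50 bins, and 61 further bins with 6 or fewer reads before reached exactly 17 and were left out. Undifferentiated cells held exactly 6 reads in 60 members, while 89 bins with exactly 7 reads were left out although they reached 18 later. With 3 or fewer reads before and 24 or more after, 25 bins remained, of which 15 were marked with atRA only, 7 in EBs only and 3 with both. Bins shifted by 1 kb gave 241 bins under the same limits, but only 85 of the 227 members overlapped one of them, so the names of single weak bins depend on where the bin borders fall.

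The bins were scattered, and a part of them lay beside H3K4me3 that was present before. They formed 219 separate runs, of which 213 were a single bin and the longest was 3 bins. In 45 bins (19.8%) a directly adjoining bin already held 18 or more reads in undifferentiated cells, against 1.11% of all 1213380 bins with 6 or fewer reads. At the other end, 120 bins (52.9%) lay more than 50 kb from any such marked bin, against 78.2% of all bins with few reads. Of the bins marked with both treatments 63.3% were this isolated, of those marked with atRA only 57.5%, and of those marked in EBs only 38.9%.

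The mean profile around the bin centres showed the same mixture. In undifferentiated cells H3K4me3 was 2.40 times the autosomal mean within 1 kb of the centre and 3.97 times between 1 and 3 kb, a dip that the rule itself produces beside marked bins. With atRA the 2 zones were 11.01 and 6.13 times the mean and in EBs 9.35 and 5.02 times. Beyond 5 kb the 3 libraries lay close together, at 1.42, 1.44 and 1.49 times the mean between 5 and 10 kb.

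**Figure D2:**
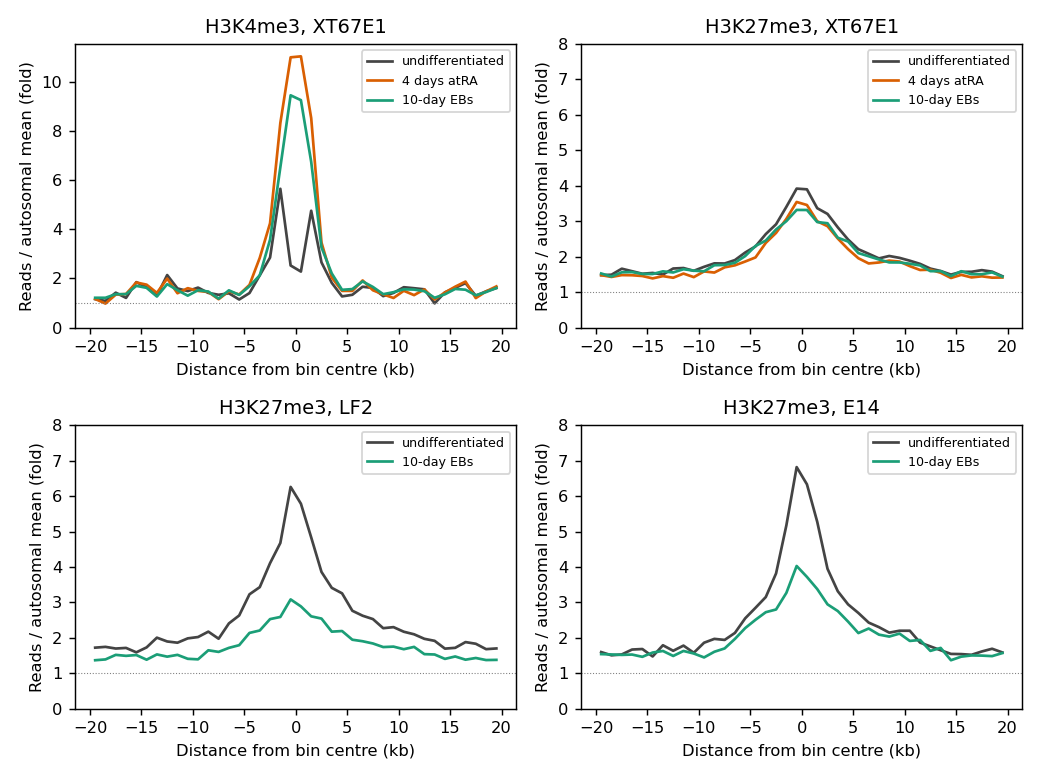
Reads around the centres of the 227 bins, relative to the mean autosomal density (y axis, fold), in 1 kb steps up to 20 kb on each side (x axis), 1 line per library, with H3K4me3 of XT67E1 apart from H3K27me3 of the 3 lines. H3K27me3 peaks at the centre before differentiation, at 3.91, 6.02 and 6.58 times the mean within 1 kb in XT67E1, LF2 and E14, and is lower there in EBs of all 3 lines.

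Chromosomes 2, 1 and 7 held the most members, with 23, 20 and 20 bins. Chromosome 8 held 17 bins, or 12.9 per 100 Mb against 9.18 over all autosomes. Chromosomes 7, 2 and 18 were similar, with 13.1, 12.7 and 12.1 per 100 Mb. The H3K4me3 density of chromosome 8 was 1.44 times the autosomal mean in undifferentiated XT67E1, 1.43 times with atRA and 1.43 times in EBs. The part of this higher density in the 17 bins was not tested. Without chromosome 8, 210 bins remained, with 100 marked with atRA only, 65 in EBs only and 45 with both.

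Before differentiation, most of these bins lay in chromatin with much H3K27me3, in XT67E1 and also in the lines whose H3K4me3 was not measured. Summed over the 227 bins, undifferentiated cells held 5759 H3K27me3 reads in XT67E1, 4826 in LF2 and 5327 in E14. This was 3.91 times the mean autosomal bin in XT67E1 (interval 3.81 to 4.01), 6.02 times in LF2 (5.85 to 6.19) and 6.58 times in E14 (6.40 to 6.75). The median bin held 24 reads in XT67E1, 17 in LF2 and 13 in E14, against 5, 2 and 3 reads over all autosomal bins.

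For the comparisons of H3K27me3, the reads of the 10 kb bin around each member were counted, which gave 220 bins for the 227 members. Such a bin is called rich here when it lies at or above the 90th percentile of its library, which by construction holds for about 10% of all bins. Undifferentiated, 143 of the 220 bins (65.0%) were rich in XT67E1, where 10.1% of all autosomal bins were. In LF2 142 bins were rich (64.5%, background 10.1%), and in E14 152 bins (69.1%, background 10.9%). In all 3 lines 131 bins were rich and in none of them 57.

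The bins marked with both treatments were the richest in H3K27me3 at the start. Of their 47 bins of 10 kb, 87.2% were rich in XT67E1, 85.1% in LF2 and 85.1% in E14. For atRA-only bins the shares were 61.8%, 60.8% and 67.6%, and for EB-only bins 54.9%, 56.3% and 60.6%. The summed level of the bins marked with both was 5.18 times the mean autosomal bin in XT67E1 (interval 4.93 to 5.43), against 3.83 for atRA-only bins (3.68 to 3.98) and 3.17 for EB-only bins (3.01 to 3.34). In LF2 and E14 the order was the same, as the plot of summed reads shows.

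**Figure D3:**
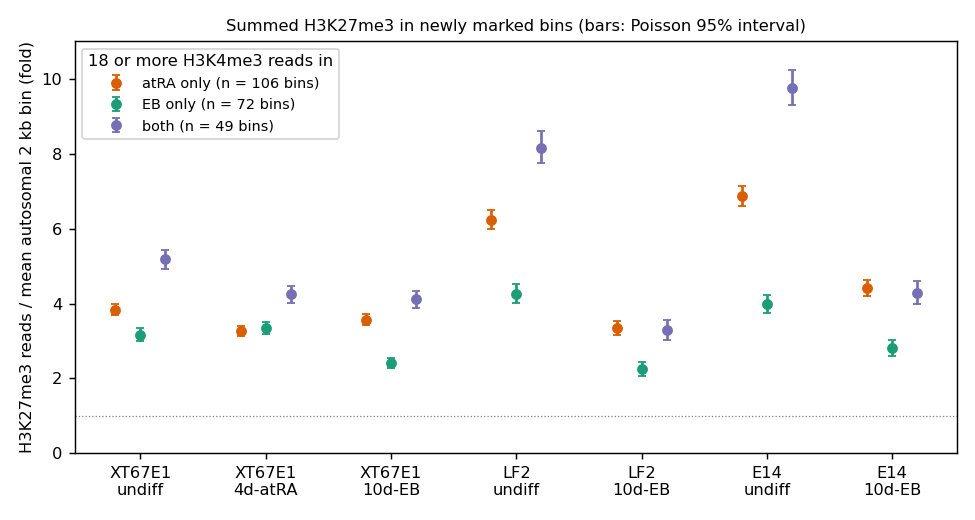
H3K27me3 reads summed over the newly marked bins in each of 7 libraries, relative to the mean autosomal 2 kb bin (y axis, fold), for bins marked with atRA only, in EBs only and with both, with Poisson 95% intervals that cover counting error. The level in undifferentiated E14 is 9.75 times the mean for bins marked with both, and in E14 EBs it is 4.29 times.

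Distance from older H3K4me3 went along with H3K27me3. Of the 116 bins of 10 kb that hold the members more than 50 kb from a marked bin, 80.2% were rich in undifferentiated XT67E1, 76.7% in LF2 and 80.2% in E14. Of the 44 bins that hold the members beside a marked bin, 22.7%, 27.3% and 40.9% were rich. The members that were rich in no undifferentiated line were 57, of which 26 adjoined a marked bin, 29 were marked with atRA only, 23 in EBs only and 5 with both. An example is chr11:6372001-6374000, which adjoined a marked bin and held 3, 28 and 10 H3K4me3 reads undifferentiated, with atRA and in EBs, while its H3K27me3 stayed between 3 and 6 reads in all 7 libraries.

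After differentiation H3K27me3 was lower over the newly marked bins, by much more in LF2 and E14 than in XT67E1. In LF2 the summed reads went from 4826 to 2364, a ratio of 0.496 (interval 0.472 to 0.521) when scaled to autosomal reads. In E14 they went from 5327 to 3145, a ratio of 0.589 (0.564 to 0.616). In XT67E1 they went from 5759 to 4845 in EBs, a ratio of 0.849 (0.817 to 0.882), and to 5151 with atRA, a ratio of 0.895 (0.862 to 0.930). With atRA the ratio scaled to background was 0.990 (0.953 to 1.03), so that a lower level with atRA was not seen under that scaling.

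Per 10 kb bin, the median log2 ratio in LF2 EBs was -0.66 over 215 bins with at least 20 reads, against 0.05 over all autosomal bins. In LF2 45 of the 215 bins were called lower, that is at least 2-fold with a counting interval that excludes no change, where 2.44% of all bins were, and 1 was called higher (background 4.01%). In E14 EBs the median was -0.51 over 220 bins against -0.00 over all bins, with 46 bins called lower (background 2.94%) and 5 higher (background 2.04%). As shares of the bins, 20.9% were lower in each of these lines. In XT67E1 EBs the median was -0.12 over 220 bins against 0.01, with 4 bins lower (background 0.787%) and 1 higher (background 2.25%). With atRA it was -0.16 against -0.05, with 13 lower (background 2.09%) and 2 higher (background 0.836%). Scaled to background instead of all autosomal reads, the calls lower and higher were 89 and 1 in LF2, 34 and 7 in E14, 9 and 0 in XT67E1 EBs and 10 and 4 with atRA. Calls over all bins under that scaling are not given here, so these counts have no background share. The XT67E1 comparisons with atRA and with EBs share the undifferentiated library.

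The few bins called higher, and those called lower in XT67E1 EBs, were named after their values were seen. Called lower in XT67E1 EBs were the 10 kb bins that hold chr12:55302001 (log2 ratio -1.54), chr5:14024001 (-1.22), chr8:38056001 (-1.21) and chr18:83080001 (-1.07). All of them were marked in EBs, as were 121 of the 227 members. Called higher in E14 EBs were the 10 kb bins that hold chr4:116804001 (1.75), chr4:111086001 (1.34), chr11:69778001 (1.23), chr4:135128001 (1.21) and chr8:74082001 (1.04). The last 4 were marked in EBs only, as were 72 of the 227 members. Called higher in LF2 EBs was the 10 kb bin of chr4:116804001 (1.40), in XT67E1 EBs that of chr7:116814001 (1.04), and with atRA those of chr4:135128001 (1.00) and chr7:36018001 (1.00).

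In the members' own 2 kb, over the bins with at least 20 reads, the medians also lay below those of all such bins. The median log2 ratio was -1.13 in LF2 EBs (134 bins, against -0.33 over all such bins), -0.86 in E14 EBs (128 bins, against 0.16), -0.26 in XT67E1 EBs (167 bins, against -0.10) and -0.15 with atRA (165 bins, against 0.08). In LF2 69 were called lower and 2 higher, where 12.5% and 1.98% of all such bins were. In E14 56 were lower and 7 higher (background 6.07% and 9.11%), in XT67E1 EBs 15 and 1 (background 4.15% and 2.15%), and with atRA 22 and 3 (background 2.13% and 3.66%).

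**Figure D4:**
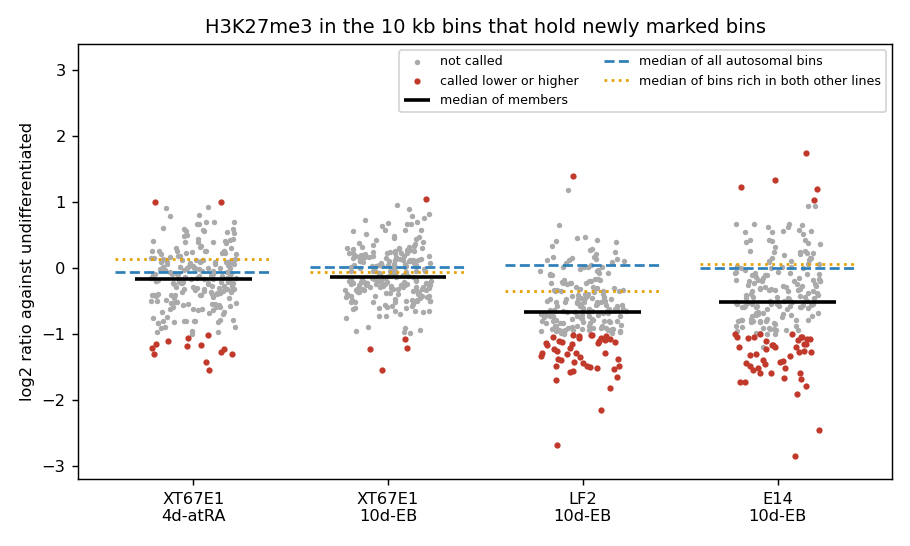
H3K27me3 log2 ratio against undifferentiated cells (y axis) for each 10 kb bin that holds a newly marked bin, in 4 comparisons (x axis), with called bins in red and the medians of members, of all autosomal bins and of bins rich undifferentiated in both other lines as lines. The members' medians are -0.66 in LF2 EBs and -0.51 in E14 EBs, below both reference lines.

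Since these bins started rich, they were also set beside other rich bins. To avoid choosing on the library compared, a bin was taken here when it was rich in both other undifferentiated lines, a comparison added after the data were seen. In E14 EBs the median over 17018 such bins was 0.06, and over the 137 members among them it was -0.55, with 33 called lower (24.1%, against 3.69% of such bins) and 2 higher (1.46% against 2.61%). In LF2 EBs the medians were -0.34 over 14138 bins and -0.82 over 134 members, with 38 called lower (28.4% against 7.90%) and 0 higher (background 0.332%). In XT67E1 EBs they were -0.05 over 15616 bins and -0.21 over 134 members, with 2 called lower (1.49% against 0.378%) and 0 higher (background 0.986%). With atRA they were 0.13 and -0.15, with 10 called lower (7.46% against 0.845%) and 0 higher (background 1.39%). Some of these rich bins held a 2 kb bin with 18 or more H3K4me3 reads in undifferentiated XT67E1. Their medians were -0.10 in E14 (808 bins), -0.42 in LF2 (765 bins), 0.14 in XT67E1 EBs and 0.18 with atRA (1125 bins). The members' medians were below all of these. H3K4me3 comes from XT67E1 alone and richness from the other lines over 10 kb, so these bins are not shown to be bivalent. The rich bins were not matched to the members for starting level. In undifferentiated XT67E1, 120 of the 143 rich member bins lay at or above the 95th percentile, against 11904 of all 24006 rich bins. The differences from the members were not tested, and within a line each rests on 1 library per group.

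The depth of contrast differed between the libraries. The 10% of 10 kb bins with the most reads took 25.4% of the reads in undifferentiated XT67E1, 28.5% with atRA and 24.2% in EBs. In LF2 it took 31.4% undifferentiated and 26.3% in EBs, and its part in the lower values of LF2 EBs was not tested. In E14 it took 26.5% undifferentiated and 28.9% in EBs, and its part in the members' values was not tested there or in XT67E1.

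Between the treatments of XT67E1, H3K27me3 differed most in the bins that EBs alone marked. These 2 later libraries of H3K27me3 share no control, and the H3K27me3 reads were not used in the choice. In bins marked with atRA only, atRA-treated cells held 2240 H3K27me3 reads and EBs 2433, a ratio of 0.914 (interval 0.862 to 0.968), with atRA lower in 65 bins and higher in 41. In bins marked in EBs only, they held 1561 and 1115, a ratio of 1.39 (1.29 to 1.502), with atRA higher in 49 bins and lower in 23. In bins marked with both the ratio was 1.03 (0.956 to 1.12). The atRA-only value depended on the scaling: scaled to background it was 1.09 (1.03 to 1.15), on the other side of 1, while the EB-only value was 1.66 (1.53 to 1.79). The ratio of EB-only bins was 1.52 times that of atRA-only bins (1.38 to 1.67), a figure in which the scaling cancels. Against undifferentiated cells, the EB-only bins stood at 0.759 in EBs (0.702 to 0.821) and at 1.05 with atRA (0.982 to 1.13), and the atRA-only bins at 0.852 with atRA (0.805 to 0.901) and at 0.932 in EBs (0.882 to 0.986).

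LF2 and E14 EBs were lower in all classes, bins included that XT67E1 marked with atRA only. The summed ratio in LF2 was 0.537 for atRA-only bins (interval 0.501 to 0.576), 0.530 for EB-only bins (0.478 to 0.587) and 0.402 for bins marked with both (0.364 to 0.444). In E14 it was 0.641 (0.603 to 0.682), 0.705 (0.640 to 0.776) and 0.440 (0.403 to 0.480). Whether H3K4me3 rose at these bins in LF2 or E14 is not analysed here.

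By rank, most rich bins were rich after differentiation as well. Of the 143 bins rich in undifferentiated XT67E1, 14.7% were no longer rich with atRA and 16.1% in EBs, against 26.7% and 28.95% of all rich autosomal bins. These shares are not matched for starting level and do not measure how far H3K27me3 fell. Of the 143 bins, 120 lay at or above the 95th percentile before differentiation, against 11904 of all 24006 rich bins. Bins were also called rich in the library compared. In LF2 EBs 23.2% of 142 were no longer rich (all rich bins 32.4%), and in E14 EBs 28.3% of 152 (all rich bins 40.2%). The rich EB-only bins were not below these shares in EBs, as XT67E1 lost 30.8% of them, LF2 42.5% and E14 41.9%. With atRA, 19.0% of the rich atRA-only bins and 14.6% of those marked with both were no longer rich. In EBs 59.1% of the 220 bins were rich in XT67E1 (background 10.5%), 51.8% in LF2 (background 10.8%) and 52.7% in E14 (background 10.8%), and with atRA 58.6% (background 10.0%). Among EB-only bins, the rich share in EBs was 42.3% in XT67E1, 33.8% in LF2 and 40.8% in E14.

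**Figure D5:**
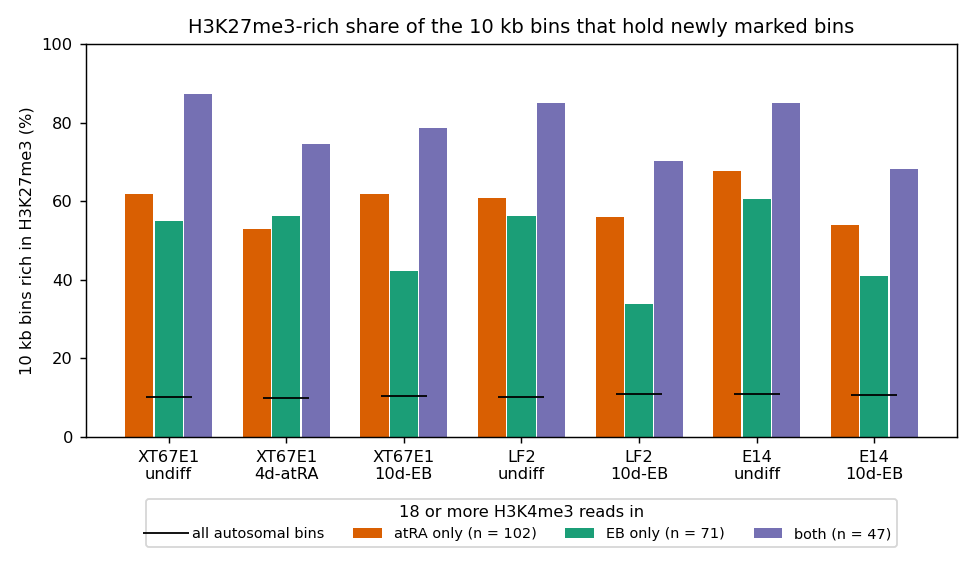
Share of the 10 kb bins that hold newly marked bins and lie at or above the 90th percentile of H3K27me3 in each of 7 libraries (y axis, percent), by the treatment that marked the bin, with black lines for all autosomal bins. Bins marked with both treatments stand highest in every library, from 68.1% in E14 EBs to 87.2% in undifferentiated XT67E1.

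EBs were also compared with undifferentiated cells over the 3 lines, by limma with each cell line as its own block, in 227429 bins of 10 kb. Of the 220 bins that hold members, 5 fell and 1 rose at a Benjamini-Hochberg adjusted p under 0.05, where 0.0400% of all bins fell and 0.0932% rose. At an unadjusted p under 0.05, 82 of the 220 were lower (background 3.43%) and 2 higher (background 4.34%). The median log2 change was -0.41, against 0.03 over all bins. Of the 220 bins, 101 (45.9%) were lower in 3 of 3 lines and 7 higher in 3 of 3. The share of all bins with 1 direction in 3 of 3 lines is not given here, so these 2 counts have no background. Without the block 0 members were called, where 0 of all bins fell and 10 rose. At an unadjusted p under 0.05, 69 members were then lower and 2 higher (4932 and 6779 of all bins). With limma voom 18 fell and 1 rose (227 and 349 of all bins). Without XT67E1 8 fell and 1 rose (179 and 148 of all bins), and without E14 6 fell and 0 rose (169 and 469). Without E14, 62 were lower and 3 higher at an unadjusted p under 0.05 (7762 and 13339 of all bins).

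The largest fall among members was at chr18:83080001-83082000, where H3K4me3 went from 5 reads undifferentiated to 32 with atRA and 32 in EBs. Its 10 kb bin held 139 H3K27me3 reads undifferentiated, 62 with atRA and 65 in EBs of XT67E1, 100 and 30 in LF2 and 128 and 17 in E14. All later libraries were thus under the undifferentiated one of their line, and the log2 change over the lines was -1.87 (SE 0.26, limma adjusted p = 5.7e-05, lower in 3 of 3 lines). In the member's own 2 kb the XT67E1 reads barely moved, at 27, 30 and 26.

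The bin chr2:11424001-11426000, marked in EBs only, had less H3K27me3 in EBs, where H3K4me3 was high, than with atRA, where it was not. Its 10 kb bin held 74 H3K27me3 reads undifferentiated, 89 with atRA, where H3K4me3 was at 1 read, and 44 in EBs. In LF2 it held 83 and 12 reads and in E14 78 and 24. The change in EBs was -1.69 (SE 0.26, limma adjusted p = 0.00050, lower in 3 of 3 lines).

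At chr12:55302001-55304000, the EB-only bin with the most reads, the 10 kb bin held 81 H3K27me3 reads undifferentiated, 71 with atRA and 27 in EBs. In LF2 it held 44 and 9 and in E14 42 and 19. The fall was -1.60 (SE 0.25, limma adjusted p = 0.00072, lower in 3 of 3 lines), and only the treatment with high H3K4me3 was low in XT67E1. The other bins that fell hold chr2:164266001-164268000 (-1.10, SE 0.24, limma adjusted p = 0.0346) and chr9:56774001-56776000 (-1.09, SE 0.25, limma adjusted p = 0.0495).

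The bin that rose holds chr4:116804001-116806000, marked with atRA only and beside a bin with H3K4me3 in undifferentiated cells. Its 10 kb held 37 H3K27me3 reads undifferentiated, 30 with atRA and 58 in EBs of XT67E1, 14 and 38 in LF2 and 21 and 73 in E14. The EB libraries were the highest of each line, and the change was 1.26 (SE 0.25, limma adjusted p = 0.0125, higher in 3 of 3 lines). In EBs its H3K4me3 was 8 reads, against 18 with atRA.

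The 2 bins with the most H3K4me3 after atRA kept their H3K27me3 in XT67E1 EBs. The 10 kb bin around chr17:12934001-12936000 held 66 H3K27me3 reads undifferentiated, 69 with atRA and 81 in EBs, against 63 and 23 in LF2 and 46 and 17 in E14. That around chr8:28088001-28090000 held 260, 193 and 245 in XT67E1, 157 and 53 in LF2 and 190 and 66 in E14. In both, XT67E1 EBs stayed near the undifferentiated level while EBs of the other lines were at least 2-fold lower.

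The 5 lowest 10 kb bins with atRA all hold members with 18 or more H3K4me3 reads with atRA, as 155 of the 227 members did. Among these 5 were neighbours on chromosome 2. The first, from 115880001, held 95 reads undifferentiated, 32 with atRA and 95 in EBs (log2 ratio -1.54 with atRA and 0.01 in EBs), and it contains 2 members that atRA alone marked, one of them with 4, 30 and 13 H3K4me3 reads. The second, from 115890001, held 203, 75 and 144 reads (-1.42 with atRA). The bin around chr11:18918001-18920000, with 5, 37 and 19 H3K4me3 reads, held 186, 75 and 217 H3K27me3 reads (-1.30 with atRA and 0.23 in EBs). In XT67E1 these bins were low with atRA and near or above their starting level in EBs, apart from the second on chromosome 2. EBs of the other lines were lower at the first bin, with 92 and 32 reads in LF2 (-1.48) and 154 and 67 in E14 (-1.19). At the bin on chromosome 11 LF2 held 155 and 86 reads (-0.82) and E14 166 and 131 (-0.34). The 5 highest bins with atRA included members that atRA alone marked. That of chr17:68048001 (39 H3K4me3 reads with atRA) went from 37 to 71 H3K27me3 reads with atRA. That of chr7:36018001 (20 H3K4me3 reads) went from 25 to 51. The rest of the 5 hold members marked in EBs only.

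Across the members, the log2 ratios in EBs of different lines correlated more closely than across all bins, most of which hold fewer reads. Between LF2 and E14 EBs, which share no library, Spearman's rho of the log2 ratios was 0.33 over 215 bins (Pearson's r 0.36), against 0.08 over 172731 autosomal bins (0.09). Of the members, 18 were called lower in both lines, out of 45 called in each over these bins. Over all bins 388 were, out of 4350 called in LF2 and 4966 in E14. Single calls were also more frequent among members, at 20.9% lower in each line against 2.44% of all bins in LF2 and 2.94% in E14. The overlaps were not compared with what these shares alone would give. Between XT67E1 and LF2 EBs rho was 0.40 (r 0.46), against 0.13 (0.14) over all bins, and between XT67E1 and E14 EBs 0.18 (0.19), against 0.01 (0.02). Between XT67E1 with atRA and E14 EBs the members' rho of 0.14 was close to the 0.13 over all bins, and with LF2 EBs it was 0.23 against 0.03. Within XT67E1 the H3K4me3 and H3K27me3 log2 ratios of the 227 members gave a rho of -0.30 with atRA (r -0.28) and -0.30 in EBs (r -0.31), over members that the H3K4me3 reads themselves had selected. All of these are descriptions across bins that share their libraries and depth, and bins are not replicates. The comparison with all bins was not matched for reads. In undifferentiated LF2, 142 of the 220 member bins of 10 kb held 35 or more reads, where the median over all bins was 14. The part of counting noise in the lower values over all bins was not tested.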

How the data were processed

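The authors' deposited files list reads, per the submitters' processing notes on mm9, as intervals of 200 bp with no value, other than their coordinates, and no interval repeated. Aligner and read filters: not given in the sources used here. Files of a set held equal numbers of reads. Midpoints were counted in bins from position 0, of 2 kb for the choice of members and 10 kb for H3K27me3, and scaled to autosomal reads. Log2 ratios used a pseudocount of 1 read and at least 20 reads in both libraries together. Calls need 2-fold and an exact conditional binomial 95% interval that excludes no change. Over the 3 lines, limma 3.58.1 in R 4.3.3 was run on log2 values (intensity trend, cell line as a block, at least 60 reads over 6 libraries, two-sided). Both were run on simulated counts, with the same shift in every line for limma and counting error alone for the calls. These runs do not show how either performs where lines or libraries vary more. Each p-value rests on the spread among 3 lines, moderated over bins. Most of its 43.3 degrees of freedom come from other bins. It therefore does not measure how far the 3 lines disagree at a single bin. At chr18:83080001 the changes in XT67E1, LF2 and E14 were -1.07, -1.69 and -2.84, beside an SE of 0.26. The lines pair the libraries, with correlated deviations of 0.19 in XT67E1, 0.08 in LF2 and 0.24 in E14. Named bins are the 10 members with most H3K4me3 reads per treatment, the 5 highest and lowest H3K27me3 ratios per XT67E1 comparison with at least 50 reads, and those limma called. The bins chr8:28086001, chr8:11310001 and chr11:6372001 were named after their values were seen. The members, gene lists and tests were chosen with earlier results of these data known. The gene lists could not be placed without an mm9 annotation.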

Additional observations from a re-analysis of the deposited data

Results flagged for a closer look

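The 10 kb bin that holds chr7:116814001-116816000, marked with atRA only (5 H3K4me3 reads undifferentiated, 26 with atRA, 9 in EBs), went in opposite directions in 2 lines. It held 21 H3K27me3 reads undifferentiated and 44 in EBs of XT67E1, a log2 ratio of 1.04, and 32 and 14 in E14, a log2 ratio of -1.14. LF2 held 17 and 13. The difference between the lines was not tested.

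The same rule applied to the X chromosome, which the choice of members left out, was met by 9 of 83312 bins. Of these, 8 were marked with atRA only, 1 with both treatments and 0 in EBs only, and they amount to 5.40 bins per 100 Mb of X. The bin with the most reads was X:96332001-96334000, with 4 H3K4me3 reads undifferentiated, 48 with atRA and 15 in EBs.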

How the results depend on the processing

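Of the alternative values, 133 stayed close to the reported ones (counts within 1.5 times), 53 moved and 1 changed direction. That was the summed H3K27me3 ratio of atRA to EBs in atRA-only bins, 1.09 under scaling to background (1.66 in EB-only bins, 1.23 in bins marked with both). Background scaling of the summed ratios against undifferentiated cells, added after seeing the data, gave 0.990 with atRA over all members (0.942 for atRA-only bins, 1.17 for EB-only, 0.908 for both), 0.786 in XT67E1 EBs (atRA only 0.864, both 0.736), 0.421 in LF2 EBs (0.456, 0.4504 and 0.342 by class) and 0.634 in E14 EBs (atRA only 0.690). Scaling to background moved the median of all bins by 0.15 with atRA, -0.11 in XT67E1 EBs, -0.24 in LF2 and 0.11 in E14. The members' median became -0.013 with atRA (4 bins higher), -0.23 in XT67E1 EBs (9 lower, 0 higher) and -0.89 in LF2 (89 lower). Calls over all bins under that scaling are not given here. A pseudocount of 5 reads left 0 bins called higher with atRA and 0 in XT67E1 EBs. The own 2 kb bins gave 22 lower with atRA, a median of -0.26 with 15 lower in XT67E1 EBs, -1.13 with 69 lower and 2 higher in LF2, and -0.86 in E14. The stricter choice left 25 members (15 with atRA only, 7 in EBs only, 3 with both). Over these the median was -0.38 with atRA (1 lower, 0 higher) and -0.81 in LF2 (6 lower, 0 higher), and the calls were 0 lower and 0 higher in XT67E1 EBs and 6 lower and 0 higher in E14. The causes were not tested.

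Over the 3 lines limma called 5 members lower and 1 higher (91 and 212 of all 227429 bins). With voom 18 were lower (227 of all bins) and with a pseudocount of 5 reads 11 (178). With no read minimum 3 were lower (34 of 252995 bins) and in the own 2 kb bins 10 (149 of 67250). Without the replicate block 0 were lower and 0 higher (0 and 10 of all bins). Leaving out 1 line in turn gave 6 to 8 lower and 0 to 1 higher, namely 8 lower without XT67E1 and 0 higher without E14. Over all bins it gave 65 to 179 lower and 148 to 469 higher. With 2 lines the spread was pooled over all bins, so that bins of like intensity are assumed to vary alike. How far the 2 lines differ at a single bin does not enter these calls. At these depths a single 2 kb bin holds few reads, and with under 20 in a pair of libraries no ratio is given.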
